A study of Mus musculus with 6 samples.

Results

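The respiratory chain of mitochondria is built mostly from proteins encoded in the nucleus, and open chromatin at 96 of their genes was described in 6 ATAC-seq libraries of mouse vascular smooth muscle cells. The genes were taken from the 21887 protein-coding genes of the RefSeq annotation of mm10 by symbol alone: the Nduf families a, b, c, s and v, Sdha to Sdhd, the Uqcr family, Cox4 to Cox8 and the Atp5 family. In ATAC-seq the transposase Tn5 cuts DNA where chromatin is open. The si-Arid3a group had 3 libraries from cells given siRNA against Arid3a, a transcription factor with an AT-rich interaction domain, with the treatments numbered #1 to #3 in the labels, and the negative control group had 3 libraries. Both groups were primary mouse vascular smooth muscle cells from a commercial supplier, kept for 24 h after transfection, with 50000 cells and a Tn5 reaction of 30 min per assay. Whether the replicates were separate cultures is not stated in the labels, and any p-value therefore reflects the spread among these 6 libraries alone, which may be technical. Angiotensin II is also mentioned there, but not which cells were given it. The comparison asked which chromatin opens or closes when Arid3a is knocked down, and if the numbers #1 to #3 stand for different siRNAs, the spread within the si-Arid3a group also holds differences between them.

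Complex I (NADH dehydrogenase) and complex II (succinate dehydrogenase) pass electrons through ubiquinone to complex III, and cytochrome c carries them on to complex IV (cytochrome c oxidase), which reduces oxygen. Complexes I, III and IV pump protons across the inner membrane, and complex V, the ATP synthase, uses that gradient to make ATP. Most subunits are needed in every cell, but several complex IV subunits have another gene used mainly in heart and skeletal muscle, in testis, in lung or at low oxygen. By symbol, the 96 genes comprised 39 of complex I, 8 complex I assembly factors (the Ndufaf genes, whose products help to build the complex and do not stay in it), 4 of complex II, 8 of complex III, 20 of complex IV and 17 of complex V. Ndufa4 and its relative Ndufa4l2 were counted with complex IV, where the Ndufa4 protein sits despite its name. Of the 96 genes, 86 were classed as constitutive, 8 as tissue-restricted complex IV isoforms and 2, Ndufb4b and Ndufb4c, as short copies of Ndufb4.

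Peaks had been called in each library on its own. The si-Arid3a libraries 1 to 3 held 50543, 51279 and 41629 peaks, and the control libraries 1 to 3 held 51330, 33248 and 52091. Depth, estimated from the peak lists, was lowest in control library 2, at 0.95 M tags (megatags), and next lowest in si-Arid3a library 3, at 1.19 M tags, and it lay between 1.89 and 2.01 M tags in the other 4. A gene was called open in a library when a peak overlapped the window of 1 kb on each side of either annotated gene end. Of 8 smooth muscle markers, Acta2, Tagln, Smtn and Lmod1 were open in 6 of 6 libraries, Cnn1 and Myocd in 4 of 6, and Des and Myh11 in 0. The 6 epithelial and 6 germ cell markers were open in 0 of 6 libraries. Of 6 markers each, 1 leukocyte marker (Cd68) and 1 striated muscle marker (Tnnt2) were open in 6 of 6 libraries. Another striated muscle marker (Ckm, in 2 si-Arid3a and 0 control libraries) and 2 endothelial markers (Kdr and Tek) were open in 1 or 2. The rest of these endothelial, leukocyte and striated muscle markers, among them Pecam1, Cdh5, Ptprc, Myh6 and Actc1, were open in 0. Markers were counted at gene ends only.

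Respiratory chain genes were open in most libraries of both groups. The number open was 81, 77 and 76 of 96 in si-Arid3a libraries 1 to 3 (84.4%, 80.2% and 79.2%), and 77, 72 and 79 in control libraries 1 to 3 (80.2%, 75.0% and 82.3%). The groups overlapped, and the lowest count came from control library 2, the shallowest. The mean was 78.0 ± 2.65 genes in si-Arid3a and 76.0 ± 3.61 in control libraries (SD, n = 3 each), a difference of 2.0 genes that was smaller than the SD of either group. Over all protein-coding genes, 10707 ± 646 were open in si-Arid3a and 10547 ± 1070 in control libraries (SD, n = 3 each), a difference of 159.67 genes (exact two-sided permutation p = 1 over 20 relabellings, the smallest possible being 0.1). That difference was below both SDs, and it was −455.33 genes without control library 2, −12 without si-Arid3a library 1, −41 without si-Arid3a library 2 and 532 without si-Arid3a library 3. In every library the share of open respiratory chain genes exceeded the share of all genes, which was 50.5%, 50.8% and 45.5% in si-Arid3a libraries 1 to 3, and 50.8%, 42.6% and 51.2% in control libraries 1 to 3. In cultured cells, a peak from a few cells and a weak opening in all of them cannot be told apart.

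**Figure D1:**
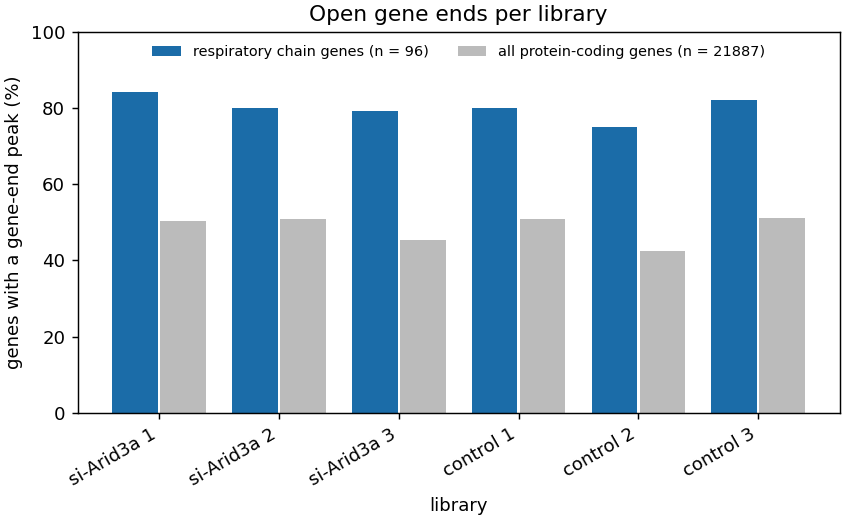
Share of genes with a gene-end peak (percent, y axis) in each of the 3 si-Arid3a and 3 negative control libraries (x axis), for the 96 respiratory chain genes in blue and all 21887 protein-coding genes in grey. The blue bars lie between 75.0% and 84.4%, the grey bars between 42.6% and 51.2%, and the lowest of both is control library 2.

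Of the 96 genes, 66 (68.8%) were open in 6 of 6 libraries, where 36.5% of all genes were. A further 16 (16.7%) were open in 1 to 5 libraries, against 22.1% of all genes, and 14 (14.6%) in 0 of 6, against 41.4% of all genes. No respiratory chain gene was open in 3 of 3 libraries of one group and in 0 of 3 of the other. That pattern, which 3 libraries against 3 cannot bring below an exact p of 0.1, was found in 0.164% of all genes on the si-Arid3a side and in 0.0914% on the control side. Over all 21887 genes, the exact permutation test gave 0 genes with an unadjusted p under 0.05 and 0 with an adjusted p under 0.05. Cox6b1 was the single gene open in at least 2 more si-Arid3a than control libraries (1.04% of the genes, 1.4% of all), and Atp5g3 the single one open in at least 2 fewer (1.04%, against 1.23% of all). Both shares were near the background.

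**Figure D2:**
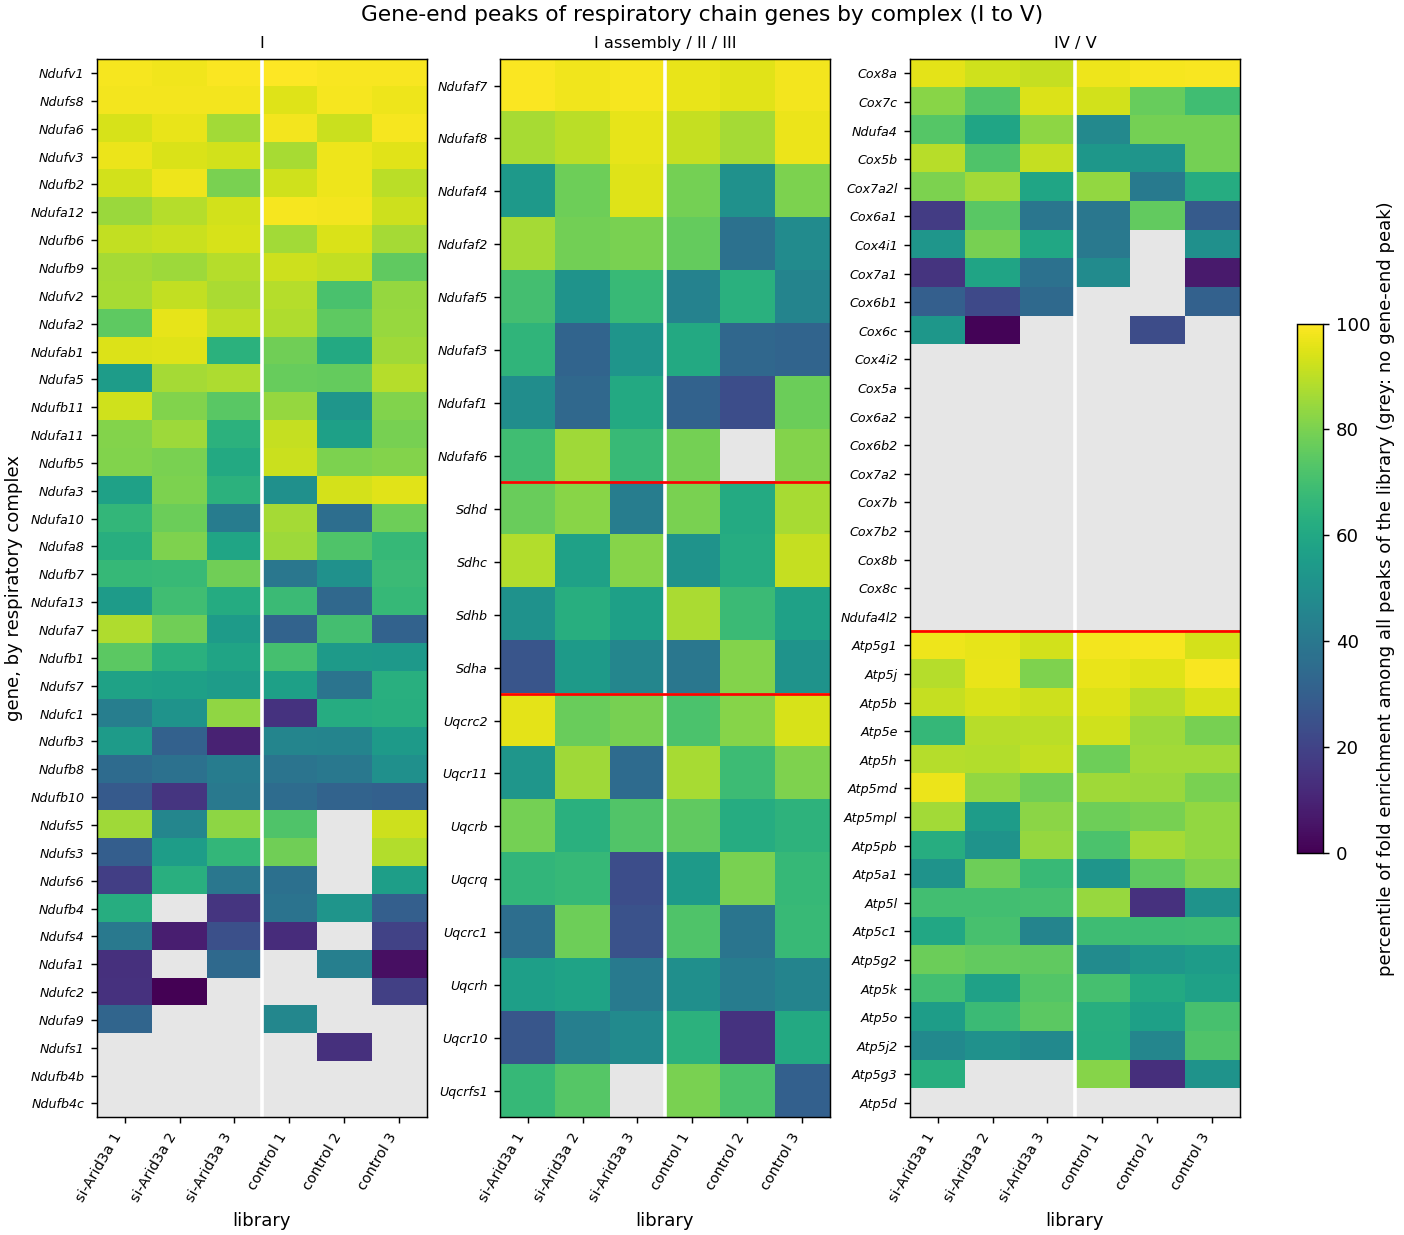
Percentile of fold enrichment (colour, 0 to 100, among all peaks of the same library) of the strongest gene-end peak of each respiratory chain gene shown (y axis, in panels by complex, separated by red lines), in 3 si-Arid3a and 3 control libraries (x axis, separated by a white line). Grey cells have no gene-end peak, and in complex IV they fill all 6 libraries for 10 of 20 genes.

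The complexes differed in how completely they were open. Complex I had 27 of 39 genes open in 6 of 6 libraries, 9 in 1 to 5 and 3 in 0, and its assembly factors had 7 of 8 in 6 of 6. All 4 genes of complex II were open in 6 of 6 libraries, as were 7 of 8 genes of complex III and 15 of 17 of complex V. Complex IV had 6 of 20 genes open in 6 of 6 libraries, 4 in 1 to 5 and 10 in 0. Of its 8 tissue-restricted isoforms, 0 were open in 6 of 6 libraries and 7 in 0 of 6, and of its 12 constitutive genes, 6 were open in 6 of 6, 3 in 1 to 5 and 3 in 0. Within complex V, all 4 genes of the peripheral stalk and all 5 of the smaller membrane subunits were open in 6 of 6 libraries, as were 4 of 5 genes of the F1 head and stalk and 2 of 3 genes of the c ring, the rotor in the membrane. Within complex I, 4 of 7 core subunits, which hold the flavin and iron-sulfur centres or the quinone site, and 23 of 30 accessory subunits were open in 6 of 6.

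**Figure D3:**
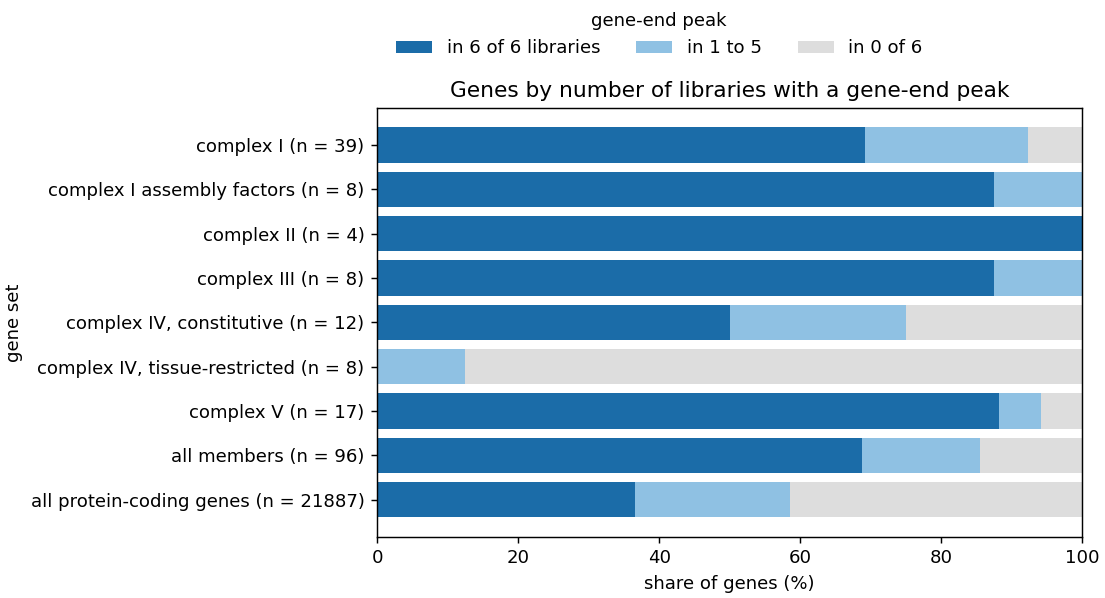
Share of genes (percent, x axis) with a gene-end peak in 6 of 6, in 1 to 5 and in 0 of 6 libraries, for each complex, for complex IV split by class, for the 96 genes together and for all protein-coding genes (y axis). The tissue-restricted isoforms of complex IV have 0 of 8 genes open in 6 of 6 libraries, and complex II has 4 of 4.

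Tissue-restricted isoforms of complex IV were closed where most of their constitutive partners were open. The values given are the fold enrichment of the strongest gene-end peak over local background, which is the authors' own value. It is scaled within each library, so it describes peaks and is not compared as change between libraries. Statements that groups overlapped hold only for the genes named with them. In some other genes the groups did not overlap. Atp5g2 had 9.70, 9.54 and 8.04 in si-Arid3a and 6.75, 5.91 and 7.19 in control libraries. Ndufa12 had 10.9, 11.8 and 11.0 in si-Arid3a and 16.4, 12.4 and 12.4 in control libraries. The share of all genes with such a pattern was not counted. Cox8b, the isoform of heart and skeletal muscle, and Cox8c, that of testis, had no gene-end peak in any of the 6 libraries. Cox8a (chromosome 19, 7215158 to 7217616), their partner in other tissues, had a fold enrichment of 14.2, 12.9 and 10.4 in si-Arid3a libraries and of 15.0, 12.7 and 16.6 in control libraries. Its peak was at a median percentile of 96.7 among all peaks of a library. Cox6a2, the muscle isoform, was open in 0 of 6 libraries. Cox6a1 was open in 6 of 6, with a fold enrichment of 4.74, 9.36 and 5.27 in si-Arid3a and of 6.14, 7.63 and 5.31 in control libraries, so the groups overlapped, as they did for Cox8a.

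Cox4i2, the isoform of lung and of low oxygen, had no gene-end peak in any library, and a region inside the gene (chromosome 2, 152758186 to 152758826) was present in 1 si-Arid3a and 2 control libraries. Cox4i1 (chromosome 8, 120668225 to 120674209) had a fold enrichment of 7.17, 10.1 and 6.62 in si-Arid3a libraries and of 6.20 and 6.76 in control libraries 1 and 3, with no peak in control library 2. Ndufa4l2, a relative of Ndufa4 induced at low oxygen, had no gene-end peak in any library. It did have a region inside the gene in 6 of 6 libraries (chromosome 10, 127512539 to 127513729, with its midpoint 3.86 kb above the lower gene end). That region had a fold enrichment of 6.25, 8.73 and 6.26 in si-Arid3a and of 8.41, 6.70 and 6.27 in control libraries. Ndufa4l2 was therefore not a closed gene in the wider sense, and no transcript start for it was in the promoter table used. Ndufa4 itself was open in 6 of 6 libraries, with 9.22, 7.69 and 8.93 in si-Arid3a and 6.66, 7.97 and 9.70 in control libraries.

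Cox7a1 went against the other isoforms. This gene of the heart and skeletal muscle isoform (chromosome 7, 30184171 to 30186030) had a fold enrichment of 4.51, 7.64 and 5.16 in si-Arid3a libraries and of 6.77 and 3.89 in control libraries 1 and 3. It was missing only in control library 2, the shallowest, and its peaks held 4 to 10 tags at the summit. The median distance of their summits from the transcript start was −71 bases (negative values lie upstream), so the peak was at the start of Cox7a1 itself. Its median percentile among all peaks of a library was 37.4, below that of Cox8a. Its partner Cox7a2 had no gene-end peak, but its transcript start lies inside the annotated gene, and there it had a fold enrichment of 12.0, 11.7 and 9.89 in si-Arid3a and of 11.8, 7.21 and 10.4 in control libraries.

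Cox6b2 and Cox7b2, both used mainly in testis, were open in 0 of 6 libraries, and so was Cox7b, the constitutive partner of Cox7b2 on chromosome X (106015700 to 106022450). Cox7b was the single constitutive gene with a known transcript start that had no peak within 1 kb of that start in any library. Cox6b1, the constitutive partner of Cox6b2 (chromosome 7, 30616971 to 30626114), had a fold enrichment of 5.54, 4.99 and 4.95 in the 3 si-Arid3a libraries and of 5.45 in control library 3, with no peak in control libraries 1 and 2. Its peaks were weak, with 6, 5 and 5 tags at the summit in si-Arid3a libraries and 6 in control library 3. Control library 1, where no peak was called, was as deep as the si-Arid3a libraries 1 and 2, at 1.94 M estimated tags against 1.89 and 1.98 M tags. Peaks this weak are at the edge of detection, and the part of depth in the missing Cox6b1 calls was not tested.

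**Figure D4:**
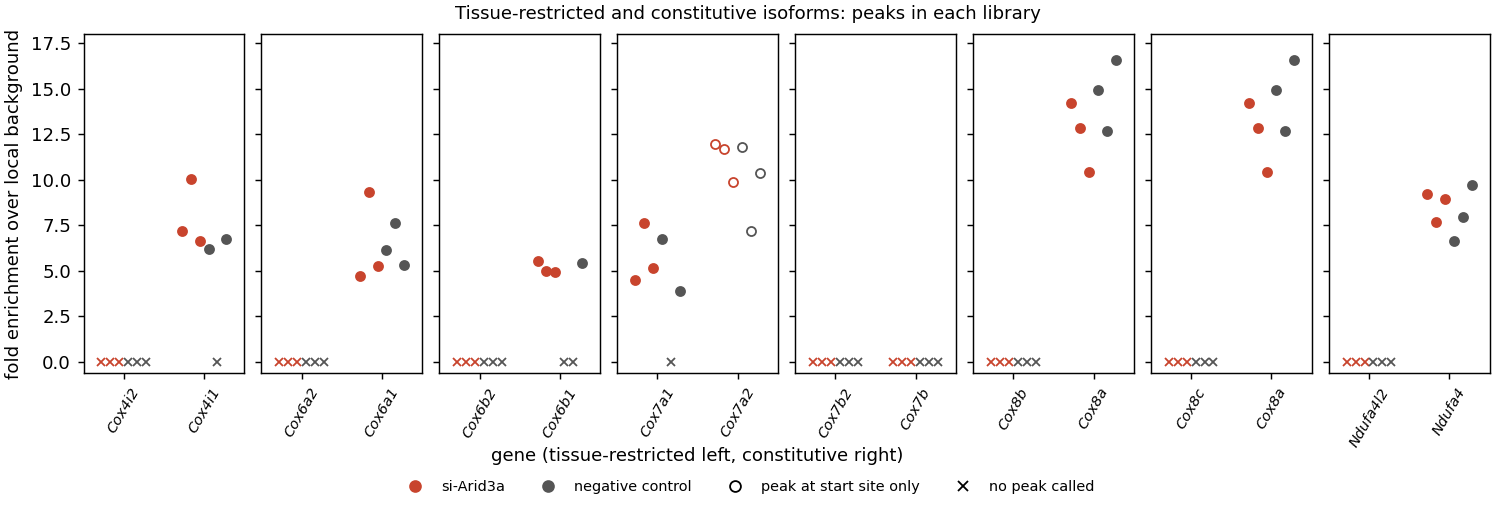
Fold enrichment over local background (y axis) of the strongest gene-end peak of 8 tissue-restricted isoforms (left in each panel) and of their constitutive partners (right), with 1 point per library, si-Arid3a in red and negative control in grey. Crosses at the foot mark libraries with no peak at a gene end or known transcript start, and are no values. Ndufa4l2 and Cox4i2 have no known start here, so their regions inside the gene are not plotted and they show crosses. Open circles, for Cox7a2, mark peaks at the transcript start only, while Cox8a, shown in 2 panels, has points between 10.4 and 16.6.

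The isoform pairs also differed in the sequence before their transcript starts, which the choice of genes did not use. For the 4 pairs in which both starts were in the RefSeq promoter table (GRCm38.p6, the assembly of mm10), the 150 bases before the start are printed 5′ to 3′ on the strand of the gene, with CG dinucleotides in capitals, since CG-rich promoters are commonly open across tissues. The tissue-restricted gene of each pair comes before its partner.
Cox7a1 (chr7:30184021-30184170, plus strand): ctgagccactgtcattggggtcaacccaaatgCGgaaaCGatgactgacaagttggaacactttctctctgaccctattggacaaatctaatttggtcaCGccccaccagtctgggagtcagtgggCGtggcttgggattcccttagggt
Cox7a2 (chr9:79759854-79760003, minus strand): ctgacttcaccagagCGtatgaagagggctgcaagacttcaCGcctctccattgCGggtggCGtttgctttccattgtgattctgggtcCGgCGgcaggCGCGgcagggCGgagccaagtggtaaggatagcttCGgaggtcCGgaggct
Cox6b2 (chr7:4753095-4753244, minus strand): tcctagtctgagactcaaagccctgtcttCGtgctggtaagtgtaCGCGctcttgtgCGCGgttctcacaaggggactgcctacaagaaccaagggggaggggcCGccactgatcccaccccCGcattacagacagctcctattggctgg
Cox6b1 (chr7:30626115-30626264, minus strand): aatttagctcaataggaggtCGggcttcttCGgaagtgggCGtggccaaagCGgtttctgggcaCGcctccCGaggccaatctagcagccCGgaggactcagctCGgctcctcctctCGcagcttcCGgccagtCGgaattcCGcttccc
Cox8b (chr7:140900447-140900596, minus strand): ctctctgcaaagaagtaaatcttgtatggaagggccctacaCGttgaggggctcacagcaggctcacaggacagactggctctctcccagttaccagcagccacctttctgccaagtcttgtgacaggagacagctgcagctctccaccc
Cox8a (chr19:7217617-7217766, minus strand): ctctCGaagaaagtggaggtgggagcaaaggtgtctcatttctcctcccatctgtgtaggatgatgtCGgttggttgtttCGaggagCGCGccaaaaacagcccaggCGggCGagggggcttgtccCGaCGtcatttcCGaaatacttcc
Cox7b2 (chr5:71548206-71548355, minus strand): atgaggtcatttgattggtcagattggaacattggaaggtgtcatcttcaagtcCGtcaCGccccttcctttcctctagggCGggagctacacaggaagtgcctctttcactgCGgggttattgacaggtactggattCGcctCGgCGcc
Cox7b (chrX:106015550-106015699, plus strand): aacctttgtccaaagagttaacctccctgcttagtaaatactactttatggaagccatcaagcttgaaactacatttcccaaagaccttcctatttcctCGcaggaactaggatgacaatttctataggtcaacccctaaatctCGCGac
In the whole promoter of 300 bases (250 before and 50 after the start), Cox8b had 2 CG dinucleotides and Cox8a had 19, Cox7a1 had 7 and Cox7a2 had 20, and Cox6b2 had 10 and Cox6b1 had 17. Cox7b2 had 10 and Cox7b had 5, the lowest count of any constitutive gene, so in this pair the order was the other way and both genes were closed. Cox7a1, with 7, was open in 5 of 6 libraries, so a low count did not go with a closed start in every gene.

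Over the 78 respiratory chain genes with a known start, the number of CG dinucleotides per promoter had a median of 20 in the 61 genes with a peak within 1 kb of the start in 6 of 6 libraries (11 to 43), and of 5 in the 5 genes with no such peak in any (2 to 10). The ranges did not overlap. The same medians over all genes were 22 for 6729 genes and 3 for 7181 genes, with ranges of 0 to 62 and 0 to 63. The 5 closed genes were Cox7b, Cox7b2, Cox6b2, Cox8b and Ndufb4b. The contrast was thus one that genes in general showed too.

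**Figure D5:**
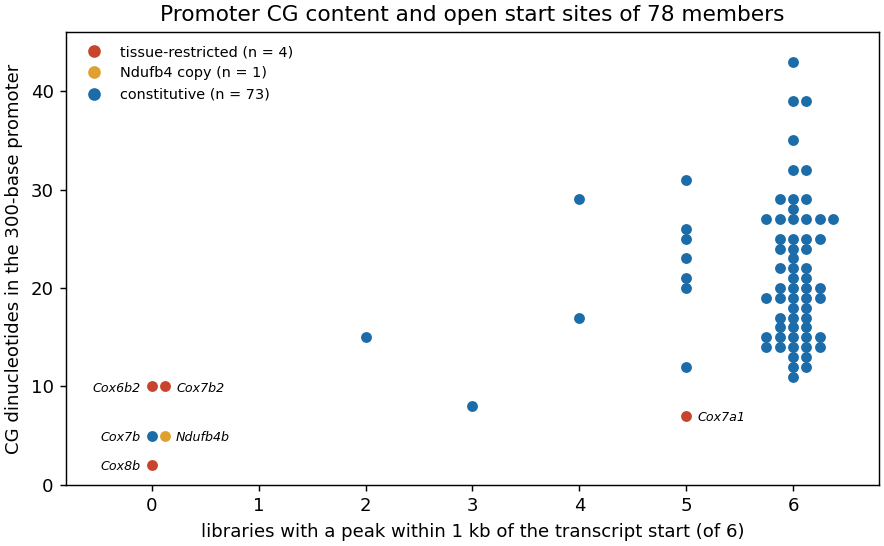
Number of CG dinucleotides in the 300-base promoter (y axis) against the number of libraries with a peak within 1 kb of the transcript start (x axis), with 1 point per gene for 78 respiratory chain genes, spread sideways where they coincide. Genes at 6 libraries have 11 to 43 CG dinucleotides, and the 5 genes at 0 libraries have 2 to 10.

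The count of closed genes depended on where the annotated gene begins. The gene-end rule took the outermost bases of each gene, and where an annotated gene reaches well beyond its main start, the start falls inside. Cox5a and Atp5d, like Cox7a2, were closed at both gene ends and had a peak within 1 kb of the transcript start in 6 of 6 libraries. Cox5a, a constitutive complex IV subunit (chromosome 9, 57517328 to 57532427), had a fold enrichment at its start of 10.4, 11.7 and 8.56 in si-Arid3a and of 13.7, 7.67 and 8.78 in control libraries. Atp5d, the delta subunit of the central stalk of ATP synthase (chromosome 10, 80138698 to 80145828), had 6.88, 8.49 and 6.81 in si-Arid3a and 7.04, 4.44 and 7.42 in control libraries. In si-Arid3a library 3 that peak of Atp5d had its summit at −775 bases, and the region at the start itself had 6.21. Values of the groups overlapped for both genes.

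Counted at transcript starts alone, 61 of 78 respiratory chain genes (78.2%) were open in 6 of 6 libraries, against 6729 of 17492 genes (38.5%), 12 in 1 to 5 and 5 in 0. By class, 61 of 73 constitutive genes, 0 of 4 tissue-restricted isoforms and 0 of 1 Ndufb4 copy were open in 6 of 6. In complex IV, 8 of 10 constitutive genes were, against 6 of 12 by gene ends. At the starts, 0 of the 78 genes were open in 3 of 3 libraries of one group and 0 of 3 of the other, a pattern of 0.0915% of all genes on the si-Arid3a side and 0.0972% on the control side. The same count was 0 for the 94 regions at gene ends and the 28 regions inside the 96 genes, where it was 0.432% and 0.277% of all 85174 regions. At these shares a count of 0 is near the background.

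The summits lay close to the transcript start. In the 61 genes open there in 6 of 6 libraries, the distance from the start to the summit had a median of −19.5 bases, with quartiles of −79.5 and 12.5. It was within 250 bases of the start in 56 genes (91.8%), against 78.4% of the 6729 genes open at the start in 6 of 6 libraries, and on the upstream side in 42 (68.9%, against 60.9%). The position of the summit of 1 gene had a median spread of 180 bases over the 6 libraries, so small distances are not resolved. Among the exceptions, the median distance over libraries was 378 bases for Ndufa4, −508 bases for Ndufa11, an accessory subunit of complex I, and −593 bases for Atp5l, a membrane subunit of ATP synthase.

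Many of these genes lie next to another gene, at the start or at the far end. Of the 96 genes, 54 had an end of another protein-coding gene within 1 kb of one of theirs. Of those, 41 were open in 6 of 6 libraries, as were 25 of the 42 without such a neighbour. Neighbours were not counted over all genes, so these counts have no background beside them. Sdhd lay 52 bases from Timm8b, a chaperone gene of the mitochondrial intermembrane space, Ndufs6 lay 21 bases from Mrpl36, a mitochondrial ribosome gene, and Ndufs3 lay 19 bases from Kbtbd4. The annotated ends of Atp5j, a peripheral stalk gene, and Gabpa overlapped, and Gabpa encodes an ETS factor known to bind promoters of respiratory chain genes. A peak between 2 such genes cannot be given to one of them.

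Open genes of the chain ranged from the strongest peaks of a library to weak ones. Over the 66 genes open in 6 of 6 libraries, the median percentile of fold enrichment within a library was 75.1 (31.3 to 99.1), and it was 72.9 over the 7978 genes open in 6 of 6. Ndufv1, the core subunit of complex I that binds NADH and flavin (chromosome 19, 4007499 to 4012755), was the strongest, at a median percentile of 99.1. Its fold enrichment was 16.2, 15.5 and 15.3 in si-Arid3a and 19.7, 13.3 and 16.7 in control libraries. The weakest was Ndufb10, an accessory subunit of complex I, with 5.44, 4.56 and 5.35 in si-Arid3a and 5.83, 4.81 and 5.45 in control libraries. In both genes the values of the groups overlapped.

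Among genes open in 6 of 6 libraries, in complex II Sdhd, a membrane anchor, was the strongest, with a fold enrichment of 9.68, 10.5 and 5.47 in si-Arid3a and of 9.91, 6.46 and 11.0 in control libraries. Sdha, the flavin subunit that oxidises succinate, was the weakest, with 5.27, 7.29 and 5.68 in si-Arid3a and 6.12, 8.20 and 6.88 in control libraries. The lowest value of Sdhd in each group came from the shallower library, si-Arid3a library 3 and control library 2. In complex III, Uqcrc2, a core protein, had 14.2, 9.72 and 8.44 in si-Arid3a and 8.89, 8.29 and 12.8 in control libraries. Uqcr10, a small subunit, had 5.32, 6.44 and 5.82 in si-Arid3a and 8.10, 3.84 and 7.67 in control libraries. In si-Arid3a libraries 2 and 3 that peak of Uqcr10 lay at the far gene end, and the peak at its start had 5.63 and 4.21. All 4 genes had overlapping groups.

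Of the complex IV genes open in 6 of 6 libraries, the highest was Cox8a and the lowest Cox6a1, at median percentiles of 96.7 and 39.4. In complex V, Atp5g1, one of 3 genes for the c ring subunit (chromosome 11, 96072793 to 96075694), had a fold enrichment of 15.1, 14.6 and 11.0 in si-Arid3a and of 16.1, 12.7 and 12.8 in control libraries. Atp5j2, a membrane subunit, had 6.77, 6.99 and 5.77 in si-Arid3a and 7.90, 5.55 and 8.85 in control libraries. Neither gene separated the groups. Among the assembly factors, Ndufaf7, known from human cells as a protein methyltransferase, was highest, with 17.5, 15.8 and 13.8 in si-Arid3a and 14.3, 10.9 and 15.5 in control libraries. Ndufaf1, which acts on early assembly intermediates, was lowest, with 6.86, 5.78 and 6.71 in si-Arid3a and 5.58, 4.36 and 9.45 in control libraries. The groups overlapped for both.

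Most genes open in 1 to 5 libraries had peaks in both groups, and the shallowest library was the one most often without them. For 7 of the 16 genes, Ndufs3, Ndufs4, Ndufs5, Ndufs6, Ndufaf6, Cox4i1 and Cox7a1, the one library without a peak was control library 2, the shallowest. Ndufs5, an accessory subunit, had 11.1, 6.64 and 8.97 in si-Arid3a libraries and 8.96 and 12.4 in control libraries 1 and 3. Ndufs3, a core subunit, had 5.54, 7.42 and 7.14 in si-Arid3a libraries and 9.72 and 11.3 in control libraries 1 and 3. These values of Ndufs3 did not overlap between the groups. Another region, inside Ndufs3 (chromosome 2, 90896069 to 90896562) was present in 6 of 6 libraries. Ndufaf6, an assembly factor, had 8.70, 11.1 and 7.22 in si-Arid3a and 9.82 and 10.0 in control libraries 1 and 3. Ndufs6, a subunit that binds zinc, had 4.79, 8.09 and 5.31 in si-Arid3a and 5.95 and 7.23 in control libraries 1 and 3. Ndufs4, an accessory subunit whose loss causes Leigh-like disease in mice, had 6.25, 4.04 and 4.41 in si-Arid3a and 4.25 and 4.74 in control libraries 1 and 3. A region inside Ndufs4, 74.5 kb above its lower end, was present in 6 of 6. The part of depth in these calls was not tested.

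Uqcrfs1, the Rieske iron-sulfur protein of complex III, lacked a peak only in si-Arid3a library 3, the shallower of its group. It had 8.45 and 9.27 in si-Arid3a libraries 1 and 2, and 9.92, 7.25 and 5.43 in control libraries. Ndufb4, an accessory subunit, lacked a peak in si-Arid3a library 2 alone, with 7.98 and 3.77 in si-Arid3a libraries 1 and 3, and 6.03, 5.89 and 5.40 in control libraries. Atp5g3, another gene for the c ring subunit (chromosome 2, 73908447 to 73912464), had 8.03 in si-Arid3a library 1 and 10.3, 3.63 and 6.87 in control libraries. It had no gene-end peak in si-Arid3a libraries 2 and 3. At its transcript start, which lies within the annotated gene, si-Arid3a library 2 did have a peak, with a fold enrichment of 8.62, so the start was open in 2 si-Arid3a and 3 control libraries. Without si-Arid3a library 1, Atp5g3 was the 1 gene of the 96 open at its ends in the control libraries and in none of the remaining si-Arid3a libraries. Without control library 3, Cox6b1 was the 1 gene open in the si-Arid3a libraries and in none of the remaining control libraries. The shares of all genes with these patterns were not counted.

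The other 5 genes were open in 1 to 4 libraries. Ndufa1, an accessory subunit encoded on chromosome X, had 4.41 and 4.95 in si-Arid3a libraries 1 and 3, and 5.41 and 3.50 in control libraries 2 and 3. Ndufc2 had 4.44 and 3.03 in si-Arid3a libraries 1 and 2, and 4.72 in control library 3. Cox6c, a constitutive complex IV subunit, had 7.17 and 3.19 in si-Arid3a libraries 1 and 2, and 4.35 in control library 2. These genes had peaks in both groups. Ndufa9, which stabilises the joint of the arms of complex I, had 5.73 in si-Arid3a library 1 and 6.62 in control library 1. Ndufs1, the largest core subunit, had a gene-end peak in control library 2 alone, at 3.73, although its upper end lies 9 bases from Eef1b2. Over the 16 genes, the median percentile ran from 13.7 for Ndufs1 to 83.1 for Ndufs5.

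Promoters of respiratory chain genes are known targets of NRF1 and of ETS factors such as GABP, and short motifs were counted on both strands of the 300-base promoters. A match is a description of letters and no evidence of binding. The NRF1 letters GCGCATG were in 15 of 78 promoters (19.2%), against 5.4% of all 17492. All 15 of these genes were open at the start in 6 of 6 libraries, as were 580 of all 944 genes with these letters. Among genes open at the start in 6 of 6, the letters were in 24.6% of respiratory chain genes and 8.62% of all. The ETS letters CCGGAAG were in 19 (24.4%), against 12.9% of all, and in 27.9% against 23.4% of those open in 6 of 6. The YY1 letters AAGATGG were in 12 (15.4%), against 7.18% of all, and in 14.8% against 8.89% of those open in 6 of 6. The SP1 letters GGGCGG were in 35 (44.9%), against 49.2% of all, and in 49.2% against 72.5% of those open in 6 of 6. The letters ATTAAA, an AT-rich core used here for ARID3A, were in 6 promoters (7.69%), those of Atp5b, Cox6b2, Ndufs4, Uqcr10, Uqcr11 and Uqcrh, against 13.7% of all, and in 6.56% against 8.65% of those open in 6 of 6. NRF1 or ETS letters were in 28 of the 78, and both in 6.

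For 8 of the 15 genes the NRF1 letters lay wholly within the 100 bases before the transcript start, and these bases are printed to show where the match sits. They run 5′ to 3′ on the strand of the gene, with matches to GCGCATG or, on the other strand, CATGCGC in capitals, and are from RefSeq, GRCm38.p6.
Ndufa6 (chr15:82354292-82354391, minus strand): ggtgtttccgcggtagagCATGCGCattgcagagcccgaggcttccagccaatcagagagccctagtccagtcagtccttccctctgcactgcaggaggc
Ndufa8 (chr2:36049339-36049438, minus strand): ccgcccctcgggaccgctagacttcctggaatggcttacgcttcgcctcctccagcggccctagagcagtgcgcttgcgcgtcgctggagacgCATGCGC
Ndufa11 (chr17:56717662-56717761, plus strand): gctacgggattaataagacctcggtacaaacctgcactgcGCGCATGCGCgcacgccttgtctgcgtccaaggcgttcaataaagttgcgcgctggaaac
Ndufb6 (chr4:40279422-40279521, minus strand): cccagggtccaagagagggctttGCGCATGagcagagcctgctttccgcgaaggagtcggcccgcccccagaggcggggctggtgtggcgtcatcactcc
Sdhb (chr4:140961171-140961270, plus strand): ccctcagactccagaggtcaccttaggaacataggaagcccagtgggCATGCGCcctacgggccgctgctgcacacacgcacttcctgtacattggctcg
Cox5b (chr1:36691387-36691486, plus strand): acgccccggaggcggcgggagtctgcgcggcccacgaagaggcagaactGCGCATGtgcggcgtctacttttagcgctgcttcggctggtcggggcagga
Atp5g2 (chr15:102671048-102671147, minus strand): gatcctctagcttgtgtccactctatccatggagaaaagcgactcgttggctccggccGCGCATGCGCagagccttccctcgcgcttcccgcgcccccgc
Atp5k (chr5:108434400-108434499, minus strand): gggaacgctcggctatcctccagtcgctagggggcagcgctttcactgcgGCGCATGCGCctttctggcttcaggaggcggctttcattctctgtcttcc
In Ndufa11, Atp5g2 and Atp5k, matches on both strands overlap and appear as one longer run of capitals. Ndufa6, an accessory subunit of complex I, had the strongest start of the 8, with a fold enrichment of 13.3, 14.9 and 9.40 in si-Arid3a and of 15.8, 9.93 and 16.1 in control libraries. Sdhb, the iron-sulfur subunit of complex II, had the weakest by median percentile, with 7.01, 8.03 and 6.42 in si-Arid3a and 11.3, 6.95 and 7.35 in control libraries. The groups overlapped in both.

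The chain also needs proteins whose symbols the rule did not take in. Of 7 such genes, 6 were open in 6 of 6 libraries: Cyc1, the cytochrome of complex III, Cycs, the somatic cytochrome c, the electron transfer flavoprotein genes Etfa, Etfb and Etfdh, and Dhodh, which feeds electrons from pyrimidine synthesis into ubiquinone. Cyct, the cytochrome c of testis, was open in 0 of 6, like the testis isoforms Cox6b2, Cox7b2 and Cox8c. Of 31 assembly factors of complexes II to V, 25 were open in 6 of 6 libraries, 4 in 1 to 5 and 2, Atpaf2 and Uqcc2, in 0. Of all genes, 36.5% were open in 6 of 6 libraries. Both lists were counted at gene ends only, so an open start inside an annotated gene would be missed. The 4 were Tmem70, an ATP synthase factor, and Uqcc3, a complex III factor, each open in 3 si-Arid3a and 2 control libraries, Sdhaf4, a complex II factor, in 2 and 3, and Atpaf1, a factor for the F1 head, in 1 and 3. Like Atpaf1, 1.23% of all genes were open in at least 2 fewer si-Arid3a than control libraries. In both lists, 0 genes were open in 3 of 3 libraries of one group and 0 of 3 of the other. That pattern was found in 0.164% of all genes on the si-Arid3a side and in 0.0914% on the control side, so 0 is near the background.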

How the data were processed

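ATAC-seq was run on 3 si-Arid3a and 3 negative control libraries, grouped by the treatment in the labels. Per the submitters' processing notes, Bowtie2, Picard and MACS2 and the build mm10 were used. For versions, parameters, duplicates and a Tn5 cut-site shift of the reads, details were not given in the sources used here. Without such a shift summits would be off by a few bases, and duplicates left in would add peaks where library complexity is low. The authors deposited 1 peak list per library. For each peak it gives a score, a fold enrichment (a ratio to the local background of the library), −log10 p and −log10 q, all the authors' own values. The −log10 values served to recover tags, to filter peaks and, by −log10 q, to pick the strongest peak of a gene. The deposited score was not used.

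Genes were the protein-coding genes of RefSeq GRCm38.p6, the assembly of mm10. The gene table gives no strand, so a gene counted as open where a peak overlapped by at least 1 base the window of 1 kb on each side of either gene end. Starts came from the RefSeq promoter table, which held 78 of the 96 genes and 17492 in all. Tags at the summit followed from fold and −log10 p under the Poisson model of MACS2, and matched within 0.001 for at least 99.996% of peaks per library. Estimated totals assume a mouse genome of 1870000000 bases and serve to rank libraries. No pair of lists shared a peak of the same position and fold. The median peak held 8 to 11 tags, so weak peaks are at the edge of detection, and peaks absent from a list may lie below its threshold.

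Counts of open genes per library were compared with an exact two-sided permutation test over 20 relabellings, and each gene likewise with Benjamini-Hochberg adjustment over all 21887 genes. The overlap counting, the group-specific calls and the recovery of tags were checked on simulated data, and the permutation test was not. The genes named with values in every library were the isoform pairs, the genes open in 1 to 5 libraries, and the strongest and weakest gene of each complex by median percentile. The genes with promoter sequence, inside regions or a start away from the gene end, and Atp5g2 and Ndufa12, were chosen after their values were seen. 1 of the 96 genes is in the counts but left out of the plot of percentiles by gene. The members, lists and motifs were chosen with earlier results of these data known. Alternatives were the window, a −log10 q of 5, summits in place of overlap, lists of equal length, starts only, each library left out, and a block on replicate number. The labels' replicate numbers are not said to mark a shared culture or day. Python 3.11.15, numpy 2.4.6, pandas 2.3.3, scipy 1.17.1 and matplotlib 3.10.9 were used.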

Additional observations from a re-analysis of the deposited data

How the results depend on the processing

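The number of genes open in 6 of 6 libraries, 66, was 63 to 68 with windows of 500 bases and 2 kb, 45 with a −log10 q of 5 or more, 56 with lists of equal length (33248 peaks), 61 at starts only, and 66 to 73 with 1 library left out. The 14 closed genes became 5 at starts only, where 6 of them have no known start and 3 (Cox5a, Cox7a2 and Atp5d) are open, and 8 with a peak anywhere in the gene. Genes open in si-Arid3a and closed in control libraries numbered 0 to 1 with 1 library left out (1, Cox6b1, without control library 3). In the 4 deepest libraries they numbered 1, which was Cox6c. In the opposite direction they numbered 0 to 1 (1, Atp5g3, without si-Arid3a library 1). Fewer libraries then have to agree, and the shares of all genes with these patterns were not counted. The difference over all genes, 159.67, was −110.33 with lists of equal length and −83 in the 4 deepest libraries, and ran from −455.33 without control library 2 to 532 without si-Arid3a library 3, and the cause was not tested. The difference in open respiratory chain genes was 0.0 with lists of equal length and 0.0 to 3.5 with 1 library left out. The 4 deepest libraries and the peak anywhere in the gene were alternatives chosen after seeing the data. Libraries of the same replicate number did not deviate together (correlations of 0.018, −0.099 and −0.088 over genes). Pairs of unlike number had correlations from −0.081 to 0.14. Values this small cannot tell whether libraries shared a culture or day, which was not tested. With a replicate block the difference stayed 159.67 (exact two-sided sign permutation p = 1), and no library correlated best with its own number. Control library 2 and si-Arid3a library 3 hold the fewest tags, and a peak missing only there may lie below their threshold, which was not tested. Fold enrichment and presence of a peak give no level of expression, and no RNA was measured.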

Other observations

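Genes of the regulators that drive mitochondrial biogenesis were mostly open as well. Of 15, 9 were open at a gene end in 6 of 6 libraries, where 36.5% of all genes were. Among them were Nrf1 and Gabpa, whose products bind promoters of respiratory chain genes, and Esrra, a nuclear receptor that acts on them. Tfam, which packages mitochondrial DNA, was another. Ppargc1a, the coactivator PGC-1alpha, was open in 3 si-Arid3a libraries and 1 control library, Hcfc1 in 3 and 2, and Yy1 in 2 and 3. Of all genes, 1.4% were open in at least 2 more si-Arid3a than control libraries. Gabpb1, the partner subunit of Gabpa, and the nuclear receptor genes Esrrb and Esrrg had no gene-end peak in any of the 6 libraries. Transcript starts were not counted for this list, so an open start inside an annotated gene would be missed. None of the 15 was open in all libraries of one group and in none of the other. Over all genes the shares were 0.164% on the si-Arid3a side and 0.0914% on the control side, so this is near the background.

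Regions inside respiratory chain genes, away from both ends, were present in all libraries in fewer cases than those at the ends. Of 28 such regions, 7 (25.0%) were present in 6 of 6 libraries, against 68 of 94 regions at gene ends (72.3%) and 24.4% of all 85174 regions. Among the 7 were the regions at the transcript starts of Cox5a, Cox7a2 and Atp5d, which lie inside the annotated genes. Ndufs4 held 5 of the 28.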
